A study of Rattus norvegicus with 84 samples.

Results

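The presynaptic vesicle release genes examined here were Snap25, Syt1, Stx1a, Vamp2, Syn1, Syp, Bsn and Pclo. They were taken by symbol from the mRNA count table, where all 8 were found among 18782 annotated genes. RNA had been sequenced from extracellular vesicles (EVs), membrane particles that cells shed, isolated from the brain and the plasma of 21 rats. The rats were adult male wild-type (WT) Sprague-Dawley rats in 7 groups of 3, and each gave 1 brain and 1 plasma mRNA library. Rats of the healthy group had no stroke. The other 18 rats underwent middle cerebral artery occlusion on the right side for 90 minutes, followed by reperfusion. On day 3 they received an infusion into the carotid artery, which was saline in the control group and human neural stem cells in the hNSCs group, and they were killed 4, 10 or 31 days poststroke. Brain EVs came from the hemisphere on the side of the occlusion, so infarct, surrounding tissue and spared tissue were pooled. The donor cells were human, and all reads had been aligned to the rat genome.

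Neurotransmitter release is carried out by a small set of proteins at the presynaptic terminal. SNARE proteins on the vesicle and on the plasma membrane zip together and pull the membranes into fusion, a calcium sensor on the vesicle triggers this step, and large scaffold proteins of the active zone hold vesicles near the release site. These genes are used as markers of neurons and synapses, and their protein products are standard immunostaining markers of synapse number after brain injury. In EVs, what is measured is messenger RNA enclosed in the vesicles. A lower level may come from fewer neuronal EVs, from less of the RNA per EV or, as levels are shares of a library, from more RNA of other EVs. In these bulk libraries they cannot be told apart.

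Of the 8 genes, 7 had a promoter entry in RefSeq (rat build GRCr8), a window from 250 bases before to 50 bases after the gene's start; Snap25 had none. The GC box GGGCGG, searched on both strands, was in all 7 of these windows and in 33.1% of the 33469 promoters in the table. The cAMP response element TGACGTCA, which is its own reverse complement, was in 1.83% of all promoters and, of the 7, in Syn1 alone. The left part of the RE1 element, TTCAGCACC, was in 0.356% of all promoters and in none of the 7. Stretches of 30 bases from Syp and Syn1 are shown because the levels of these 2 vesicle protein genes, both on chromosome X, are set against each other in the results, and the capitals mark the GC box in Syp and the cAMP response element in Syn1. Both are from GRCr8, with Syp at chrX:17536540-17536569 on the minus strand and Syn1 at chrX:3725544-3725573 on the plus strand.
Syp: acagggtgcgagGGGCGGggctgccgccga
Syn1: caaaggcgggcTGACGTCActctccagccc

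The brain libraries held between 13221461 and 37651652 counts, of which between 3.18% and 51.9% fell on annotated genes. Annotated counts ranged from 569136 in hNSCs 10 days replicate 3 to 15587216 in a control 31-day library, and every 31-day library had more of them than any healthy, 4-day or 10-day library. All 8 genes were counted in all 21 brain libraries, with the lowest count (117) for Stx1a in that shallowest library. Each of 12 genes on a list for neuronal somata and dendrites was also counted in every brain group. Levels below are CPM, counts scaled to the annotated total of a library with TMM normalization within a tissue, and levels between genes are compared only as FPKM, which divides by transcript length. Where groups of 3 rats are said not to overlap, this is a description, and the share of all genes without overlap is not given.

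Per length, the 8 genes were among the abundant messages of brain EVs. Their median FPKM over 21 brain libraries was 7.94 for Snap25, 6.33 for Syn1, 5.42 for Vamp2, 4.92 for Syt1, 4.16 for Bsn, 3.81 for Syp, 3.06 for Pclo and 3.00 for Stx1a. The ranges over libraries overlapped between all neighbours in this order, Snap25 for example spanning 1.93 to 58.8 FPKM. Snap25 had a median rank of 105 among all annotated genes within a library, and the lowest median rank, 824, belonged to Pclo. Bsn and Pclo had the highest CPM because their transcripts were the longest, 7.38 and 7.37 times the length of Vamp2 as read from the ratio of counts to FPKM.

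**Figure D1:**
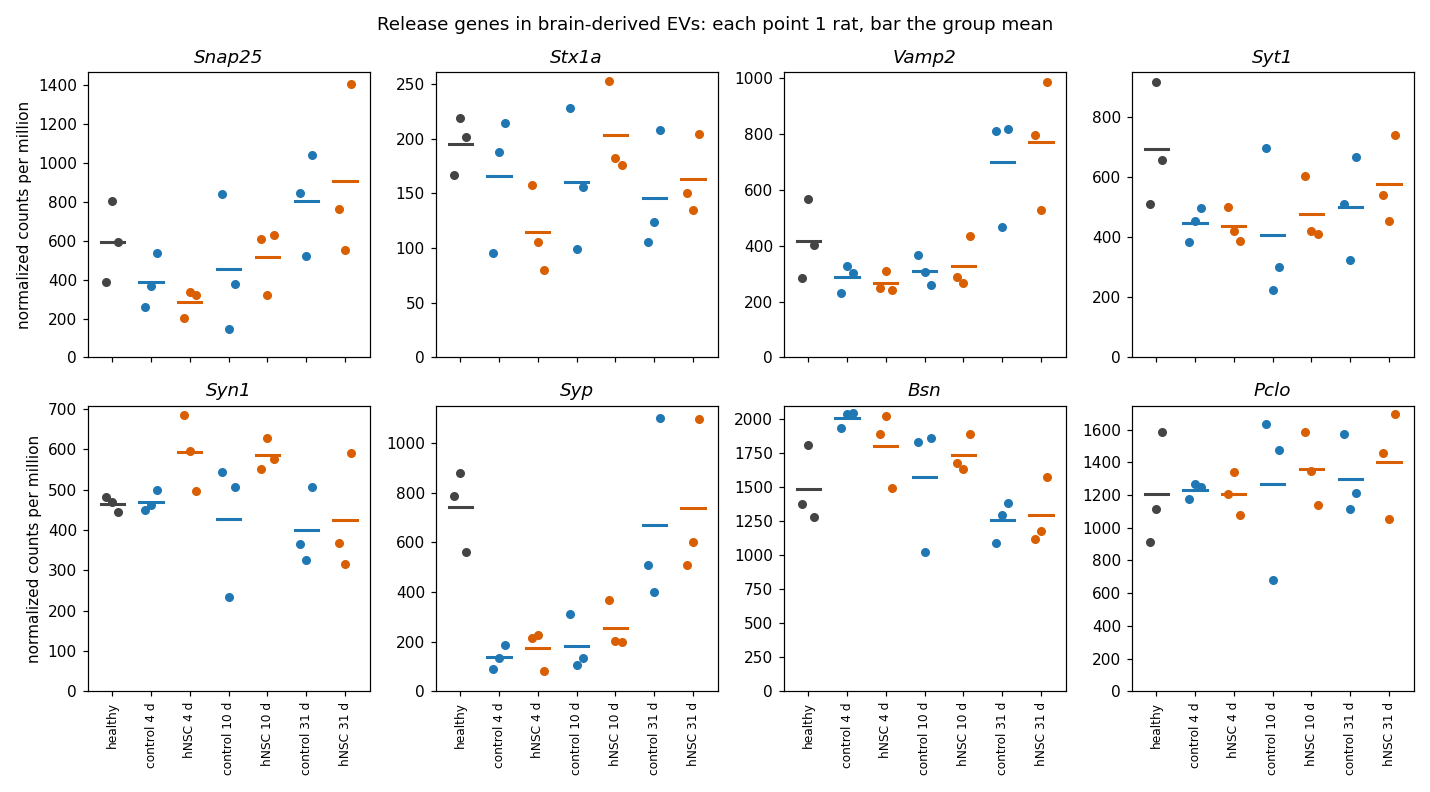
CPM of each of the 8 genes in brain-derived EVs (vertical axis, linear, from 0) by group (horizontal axis); each point is 1 rat and each bar a group mean of 3 rats. In the Syp panel the 12 libraries at 4 and 10 days lie between 83.1 and 369 CPM, below the 401 to 1100 CPM of the 9 healthy and 31-day libraries, whereas in the other 7 panels these sets overlap.

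Syp had the widest spread of the 8 genes over the brain libraries (coefficient of variation 77.6%) and encodes synaptophysin, an abundant membrane protein of synaptic vesicles. In the healthy group it stood at 786, 878 and 562 CPM in replicates 1, 2 and 3. In the control group it stood at 91.3, 133 and 186 CPM at 4 days. At 10 days the values were 312, 105 and 132 CPM, and at 31 days 507, 401 and 1100 CPM. In the hNSCs group Syp stood at 216, 228 and 83.1 CPM at 4 days, 369, 201 and 197 CPM at 10 days, and 510, 601 and 1097 CPM at 31 days. All 12 libraries at 4 and 10 days, median 192 CPM, were thus below all 9 libraries of the healthy and 31-day groups, median 601 CPM, and the remaining 7 genes showed no such separation. This split of the libraries was not among the comparisons tested. The share of all genes that separate in it is not given, so the separation is a description.

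Syp fell after stroke in the control group. At 4 days its mean was 137 ± 47.5 CPM (SD, n = 3) against 742 ± 162 CPM in the healthy group, 5.43-fold lower in the fitted model, with a log2 fold change of -2.44 ± 0.475 (SE) and an edgeR adjusted p of 0.0155. A gene was called when the edgeR quasi-likelihood test gave a Benjamini-Hochberg adjusted p under 0.05 over all 14515 genes tested and the change was over 1.5-fold, and 0.861% of genes were called in this comparison (106 higher, 19 lower). Syp was the 1 of the 8 genes called. At 10 days Syp was 4.05-fold lower than in the healthy group (log2 fold change -2.02 ± 0.469, edgeR adjusted p = 0.0477), again the 1 gene of the 8, against 0.572% of all genes. At 31 days the log2 fold change was -0.15 ± 0.450 (edgeR adjusted p = 1.00), none of the 8 genes was called, and the share over all genes was 0.00689%.

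Both calls were lost in several fits that left out 1 rat and under several other scalings, and the cause of the losses was not tested. At 4 days the call was lost on leaving out control 4 days replicate 1 (edgeR adjusted p = 0.126) or replicate 2 (0.0597), or healthy replicate 1 (0.0892), 2 (0.0613) or 3 (0.0593), although the log2 fold change stayed between -2.63 and -2.22 in these fits. It was also lost with limma on log2(FPKM + 1) (adjusted p = 0.133) and log2(FPKM + 0.1) (0.161) and in edgeR with library size over all rows (0.226), where Syp lay 1.55 to 2.48 below the median of all genes. At 10 days it was lost without control 10 days replicate 2 (edgeR adjusted p = 0.419) or 3 (0.159), or without healthy replicate 1 (0.233), 2 (0.192) or 3 (0.140), with log2 fold changes of -2.23 to -1.73. It was lost too with limma (adjusted p = 0.554 and 0.373) and in edgeR with library size over all rows (0.333), with the 2 groups alone (0.316) and with a replicate block (0.0670). Few genes of any kind were called in most of these 10-day fits. Over all genes limma called 0 at both pseudocounts, library size over all rows 2, the 2 groups alone 0 and the replicate block 53. At 4 days limma called 614 and 540 of all genes and library size over all rows 69. Without healthy replicate 1, 0 genes were called at either day, against 125 and 83 in the main fits.

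Syn1 encodes another vesicle protein, synapsin I, which tethers vesicles to one another and to the cytoskeleton. In the control group at 4 days Syn1 stayed close to the healthy level. It stood at 481, 470 and 445 CPM in the healthy group and at 449, 461 and 499 CPM in the control group at 4 days. The log2 fold change was 0.01 ± 0.287 (edgeR adjusted p = 1.00), and the groups overlapped. At 10 days control values were 544, 233 and 508 CPM, and at 31 days 364, 325 and 506 CPM.

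The ratio of Syp to Syn1 within a library does not depend on how libraries are scaled. Its log2 value averaged 0.65 in healthy rats, with an SD of 0.29 over 3 rats. The control group averaged -1.84 ± 0.44 (SD) at 4 days, -1.30 ± 0.58 at 10 days and 0.63 ± 0.43 at 31 days. In the hNSCs group it averaged -1.88 ± 0.62, -1.26 ± 0.59 and 0.77 ± 0.26 at the 3 days. Every library at 4 and 10 days was at or below -0.58, and every healthy or 31-day library at or above 0.30. The log2 ratio of Syp to Syt1 was likewise at or below -0.71 at 4 and 10 days and at or above -0.23 in the other libraries. That of Syp to Snap25 overlapped, with libraries at 4 and 10 days reaching 0.08 and healthy or 31-day libraries down to -0.74. The ratios were set out by the same split of the libraries as the Syp levels and are likewise a description.

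**Figure D2:**
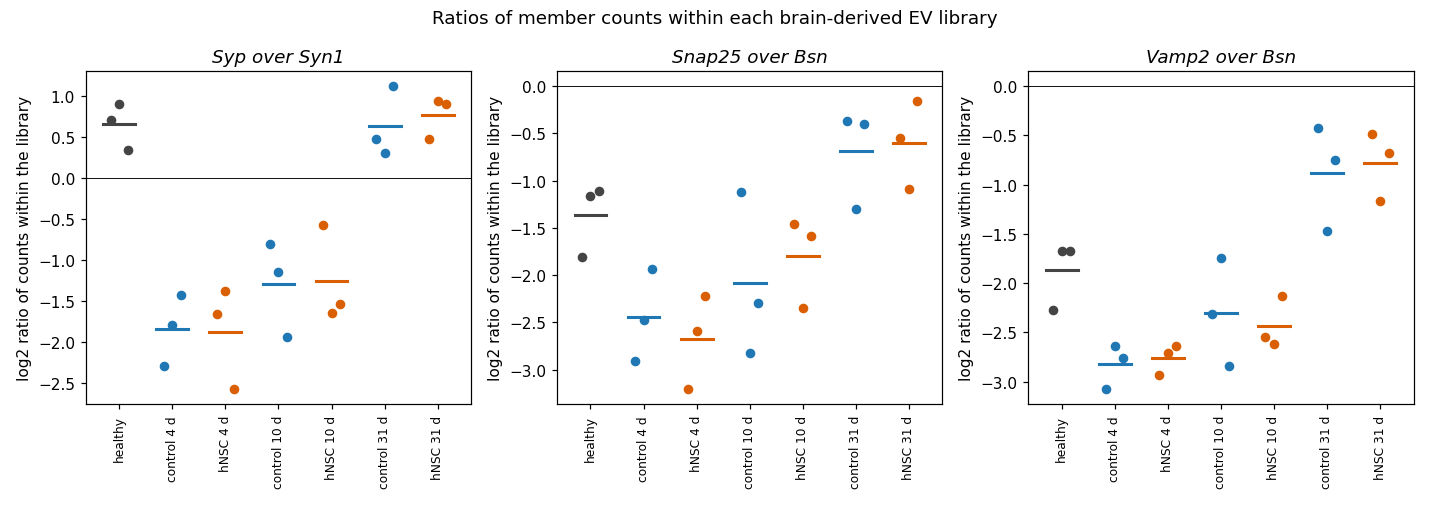
Log2 ratio of counts within each brain-derived EV library (vertical axis) for Syp over Syn1, Snap25 over Bsn and Vamp2 over Bsn by group (horizontal axis); points are rats and bars are means of 3. For Syp over Syn1 the group means at 4 and 10 days lie between -1.88 and -1.26 and those of the healthy and 31-day groups between 0.63 and 0.77.

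Among the SNARE genes, Vamp2 encodes the vesicle SNARE synaptobrevin 2, and Snap25 and Stx1a encode its partners on the plasma membrane. Vamp2 stood at 285, 565 and 402 CPM in the healthy group, and at 230, 328 and 302 CPM (4 days), 367, 305 and 258 CPM (10 days) and 810, 466 and 817 CPM (31 days) in the control group. The 31-day values were above all 4-day and 10-day control values and overlapped the healthy ones. Against the healthy group the log2 fold change was -0.54 ± 0.302 at 4 days (edgeR adjusted p = 0.448), -0.43 ± 0.303 at 10 days (0.665) and 0.74 ± 0.303 at 31 days (0.571).

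Snap25 stood at 390, 803 and 591 CPM in the healthy group. In the control group it stood at 258, 366 and 534 CPM at 4 days, 841, 144 and 376 CPM at 10 days, and 845, 523 and 1043 CPM at 31 days, so its groups overlapped at each day. Its log2 fold changes from healthy were -0.63 ± 0.466, -0.39 ± 0.465 and 0.43 ± 0.464, with edgeR adjusted p-values of 0.677 or more. Stx1a, the lowest of the 8 in CPM, ranged from 80.2 to 252 CPM over the 21 libraries. Its log2 fold changes from healthy were -0.24 ± 0.369, -0.28 ± 0.370 and -0.42 ± 0.369 at 4, 10 and 31 days, and all 3 edgeR adjusted p-values were 0.923 or more.

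Syt1 encodes synaptotagmin 1, the calcium sensor of fast release. It stood at 509, 916 and 658 CPM in the healthy group and at 386, 456 and 499 CPM in the control group at 4 days, without overlap. The log2 fold change was -0.64 ± 0.348 and did not pass the test (edgeR adjusted p = 0.431). At 10 days, with values of 698, 225 and 300 CPM, it was -0.77 ± 0.349 (edgeR adjusted p = 0.356). Without control 10 days replicate 1 the 10-day log2 fold change was -1.39 and was called (edgeR adjusted p = 0.0252). Over all genes that fit called 367, against 83 in the main fit. At 31 days the values were 512, 325 and 666 CPM.

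Bsn and Pclo encode bassoon and piccolo, the large scaffold proteins of the active zone. Bsn stood at 1370, 1804 and 1278 CPM in the healthy group and at 1934, 2035 and 2044 CPM in the control group at 4 days, higher without overlap, but its log2 fold change of 0.43 ± 0.230 did not pass the test (edgeR adjusted p = 0.410). At 10 days the control values were 1826, 1024 and 1854 CPM, and at 31 days 1091, 1292 and 1379 CPM. Pclo ranged from 682 to 1695 CPM over the 21 libraries, and its log2 fold changes from healthy were 0.03 ± 0.278, 0.07 ± 0.278 and 0.11 ± 0.278.

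**Figure D3:**
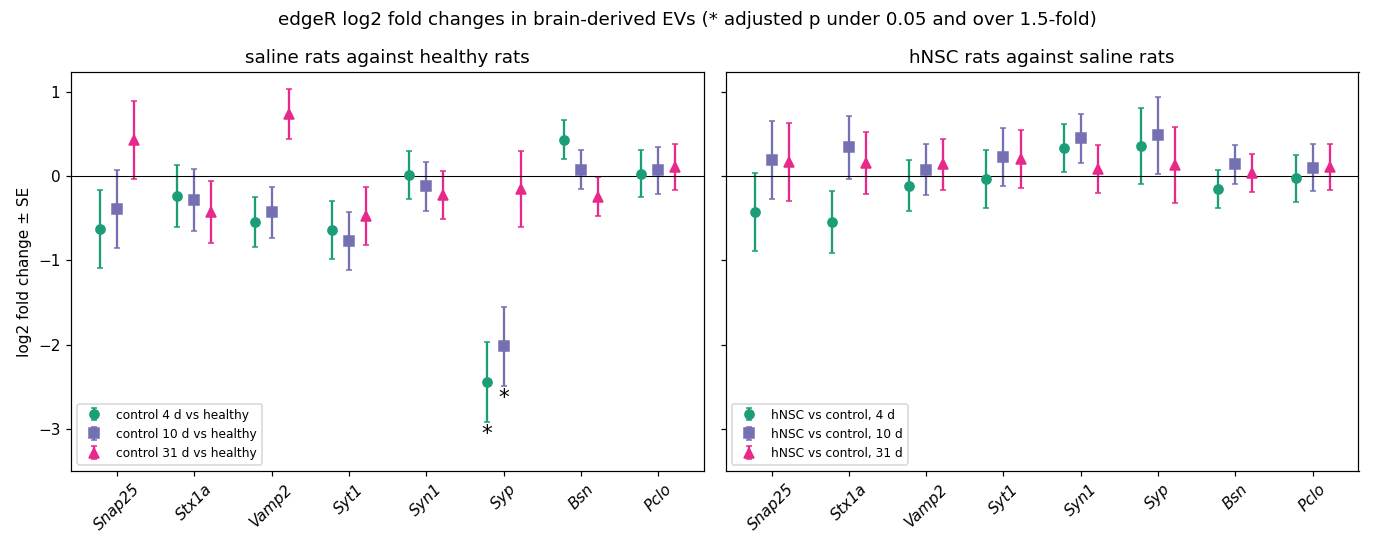
Log2 fold change with its standard error (vertical axis) for each of the 8 genes in brain-derived EVs, with control against healthy rats on the left and hNSCs against control rats on the right at 4, 10 and 31 days; an asterisk marks a call. Syp at 4 days (-2.44) and 10 days (-2.02) carries the asterisks on the left, and the values on the right lie between -0.54 and 0.49 with none.

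From 4 to 31 days Syp rose in the control group. Its level was 4.90-fold higher at 31 than at 4 days (log2 fold change 2.29 ± 0.472, edgeR adjusted p = 0.0350), the 1 call among the 8 genes against 0.248% of all genes. The call was lost without control 4 days replicate 1 (edgeR adjusted p = 0.295), 2 (0.180) or 3 (0.0639) or without control 31 days replicate 1 (0.104) or 3 (0.437), kept without replicate 2 of the 31-day group (0.0364), and lost with library size over all rows (0.293). Over all genes 1 was called without control 4 days replicate 1 and 1 with library size over all rows, against 36 in the main fit. Vamp2 was 2.43-fold higher at 31 days without overlap (log2 fold change 1.28 ± 0.306) and missed the threshold in edgeR (adjusted p = 0.0837), while DESeq2, which called 1.7% of all genes here, called it (adjusted p = 0.00388). Bsn was lower at 31 than at 4 days without overlap, with a log2 fold change of -0.68 ± 0.230 that edgeR did not call (adjusted p = 0.276) and DESeq2 did (adjusted p = 0.0380). The log2 ratio of Vamp2 to Bsn within a library was -2.82 ± 0.23 (SD, n = 3) at 4 days and -0.89 ± 0.53 at 31 days in the control group, and that of Snap25 to Bsn was -2.44 ± 0.49 and -0.69 ± 0.53.

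In the hNSCs group the same interval gave 2 calls among the 8 genes, against 1.17% of all genes. Syp was 4.19-fold higher at 31 than at 4 days (log2 fold change 2.07 ± 0.469, edgeR adjusted p = 0.0288) and Vamp2 2.90-fold higher (1.53 ± 0.308, 0.0131). Vamp2 stood at 247, 309 and 240 CPM at 4 days and at 796, 527 and 984 CPM at 31 days, without overlap. Snap25 stood at 205, 336 and 320 CPM at 4 days and at 764, 552 and 1404 CPM at 31 days, also without overlap, with a log2 fold change of 1.66 ± 0.476 that edgeR did not call (adjusted p = 0.0908) and DESeq2 did (0.0154), with 6.22% of all genes called by DESeq2. The Vamp2 call was lost without hNSCs 4 days replicate 1 (edgeR adjusted p = 0.0748) or 3 (0.0554) or hNSCs 31 days replicate 1 (0.0656) or 3 (0.126). The Syp call was lost without hNSCs 4 days replicate 1 (edgeR adjusted p = 0.0886) or 3 (0.117) or any one of hNSCs 31 days replicates 1 (0.0539), 2 (0.0545) and 3 (0.199). No difference between the hNSCs and control groups in this change was called, the interaction for Vamp2 being 0.25 ± 0.426 and that for Syp -0.23 ± 0.638 on the log2 scale (edgeR adjusted p = 1.00 for both).

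Set against the healthy group, the hNSCs group at 4 days also had low Syp, 4.23-fold lower (log2 fold change -2.08 ± 0.469, edgeR adjusted p = 0.0193), with 2.54% of all genes called. The call was lost without healthy replicate 1 (edgeR adjusted p = 0.0794), 2 (0.0694) or 3 (0.0562) or hNSCs 4 days replicate 3 (0.0999), with limma (0.226 and 0.203) and with library size over all rows (0.232). Snap25 (205 to 336 CPM), Stx1a (80.2 to 158 CPM) and Syt1 (386 to 502 CPM) did not overlap the healthy values and were not called, with log2 fold changes of -1.05 ± 0.469, -0.78 ± 0.372 and -0.67 ± 0.348. Syn1 did not overlap either, in the other direction (496 to 685 CPM), and was not called, with a log2 fold change of 0.35 ± 0.287. In this comparison 4 of the 8 genes and 19.0% of all genes had an unadjusted edgeR p under 0.05. At 10 days Syp was 2.89-fold lower in the hNSCs than in the healthy group (log2 fold change -1.53 ± 0.462), without overlap, and was not called by edgeR (adjusted p = 0.233) but was by DESeq2 (0.0321), with 0.0758% of all genes called by edgeR and 3.84% by DESeq2. Syn1 at 10 days again lay above the healthy values without overlap and was not called (log2 fold change 0.33 ± 0.288). These comparisons and those of the control group share the 3 healthy rats.

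The comparison of hNSCs with control rats on the same day asks whether the transplanted cells altered these messages. None of the 8 genes was called at 4, 10 or 31 days by edgeR or DESeq2, none had an unadjusted p under 0.05 in edgeR, and edgeR called 0% of all genes at each day (DESeq2 1.53%, 4.53% and 0%). Log2 fold changes lay between -0.54 and 0.49. At 4 days 6 of the 8 genes were below 0, with a median of -0.07 against -0.11 over all genes. At 10 days 0 were below 0, with a median of 0.21 against -0.34, and at 31 days 0, with 0.14 against 0.00. For Syp the log2 fold changes were 0.36 ± 0.453 at 4 days, 0.49 ± 0.455 at 10 days and 0.14 ± 0.449 at 31 days. Syn1 at 10 days was the 1 gene whose groups did not overlap, at 552, 628 and 576 CPM in the hNSCs group against 544, 233 and 508 CPM, with a log2 fold change of 0.45 ± 0.288 (edgeR adjusted p = 0.518). The standard errors, 0.23 to 0.47 on the log2 scale, leave room for undetected differences. No difference between days in the effect of hNSCs was called for any of the 8 genes (edgeR interactions, 0% of all genes called for each pair of days; for the 8 genes no unadjusted p was under 0.05). The shallowest library, hNSCs 10 days replicate 3, changed no call among the 8 genes when it was left out of the fit.

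The rest of the release machinery was described with 64 further genes on 5 lists, which covered SNARE partners and priming factors, calcium sensors, vesicle proteins, active zone proteins and vesicle endocytosis. All 64 were tested in brain. At 4 days 58 of them had a log2 fold change below 0 in the control group against healthy, compared with 47.0% of all genes, and their median was -0.72 against 0.05 over all genes. At 10 days 63 were below 0 with a median of -0.68 against 0.00. None of the 64 was called at either day by edgeR, with 15 (23.4%) and 11 (17.2%) at an unadjusted p under 0.05, against 14.8% and 12.7% of all genes. At 31 days 49 were below 0, with a median of -0.31 against 0.24 over all genes, and 0 were called. For hNSCs against control 42, 17 and 35 of the 64 were below 0 at 4, 10 and 31 days (65.6%, 26.6% and 54.7%), and 0 were called. Over all genes the shares below 0 were 56.5%, 62.5% and 49.4%. The medians of the 64 were -0.22, 0.33 and -0.01, against -0.11, -0.34 and 0.00 over all genes. The hNSCs 10-day group holds the shallowest library, and its part in these values was not tested.

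The calcium sensors had the lowest list median at 4 days, with 11 of 11 below 0 and a median of -0.92, and the vesicle proteins followed with 15 of 17 and -0.91. Active zone genes had 11 of 12 below 0 and a median of -0.75. Medians were smaller in size for SNARE partners and priming factors (-0.44, 14 of 16) and for vesicle endocytosis (-0.30, 7 of 8). The 8 genes themselves had a median of -0.39 with 5 of 8 below 0.

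In the hNSCs group 3 of the 64 genes were called lower at 4 days than in the healthy group, and 0 higher. Of all genes 2.54% were called in either direction (239 higher, 130 lower). Syt4, a synaptotagmin, was at 19.7 ± 2.2 CPM (SD, n = 3) against 89.5 ± 9.79 CPM (log2 fold change -2.18 ± 0.533, edgeR adjusted p = 0.0306). Rims1 and Rims2, scaffolds that dock vesicles at the active zone, had log2 fold changes of -1.22 ± 0.304 (edgeR adjusted p = 0.0346) and -1.20 ± 0.314 (0.0417). Syt4 was also the 1 of the 64 called higher at 31 than at 4 days in the hNSCs group, against 1.17% of all genes called in either direction, at 86.7 ± 26.5 CPM (log2 fold change 2.13 ± 0.531, edgeR adjusted p = 0.0476).

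Markers of neurons and of other cells were examined at the same days. The summed level of the 12 genes for neuronal somata and dendrites was 9548 to 10998 CPM in the healthy group and 3802 to 7299, 2670 to 8138 and 8476 to 10965 CPM at 4, 10 and 31 days in the control group. All 12 had log2 fold changes below 0 at 4 days, and the neurofilament gene Nefm was called (-1.97 ± 0.481, edgeR adjusted p = 0.0498). The summed level of 10 microglial genes was 64.7 to 96.8 CPM in the healthy group, 618 to 1435 CPM at 4 days, 242 to 2382 CPM at 10 days and 248 to 476 CPM at 31 days. On the microglial list C1qc and C1qb, which encode parts of complement C1q, were called higher at 4 days, and no other gene was called. On the astrocyte list Gfap and Vim were called higher at 4 days, and no other gene was called. Over all genes 0.861% were called in either direction (106 higher, 19 lower). How far the shifts of these markers account for the Syp values was not tested. The share of counts on annotated genes also moved with time, at 7.11% to 20.9% in the healthy group, 22.02% to 25.3% at 4 days, 11.3% to 13.4% at 10 days and 30.3% to 43.0% at 31 days in the control group, and its part in the results was not tested.

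The 31-day comparison with the healthy group differed between scalings. On the deposited FPKM, limma on log2(FPKM + 1) called all 8 genes higher at 31 days in the control group, against 94.3% of all genes called, with log2 fold changes from 1.21 to 2.55. The median of all genes was shifted by 1.05 in that fit, and Syp, at 1.70, was 0.64 above that median. With a pseudocount of 0.1 the median shift was 2.02 and Syp was 0.20 below it. On TMM-normalized counts Syp, Stx1a, Syt1, Syn1 and Bsn had log2 fold changes below 0 in this comparison, so the direction for these 5 genes depended on the scaling.

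The 8 genes varied together only in part. Over the 21 brain libraries, Pearson's r of log2(CPM + 1) between pairs ranged from -0.47 for Vamp2 with Bsn to 0.81 for Vamp2 with Snap25, with a median of 0.44 over 28 pairs. Syp had r = 0.76 with Snap25, 0.76 with Vamp2 and 0.72 with Syt1, but 0.01 with Syn1 and -0.36 with Bsn. After each group was centred on its own mean all 28 pairs were positive, from 0.33 to 0.84 with a median of 0.65. The points share libraries, depth and normalization, so these values are a description.

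**Figure D4:**
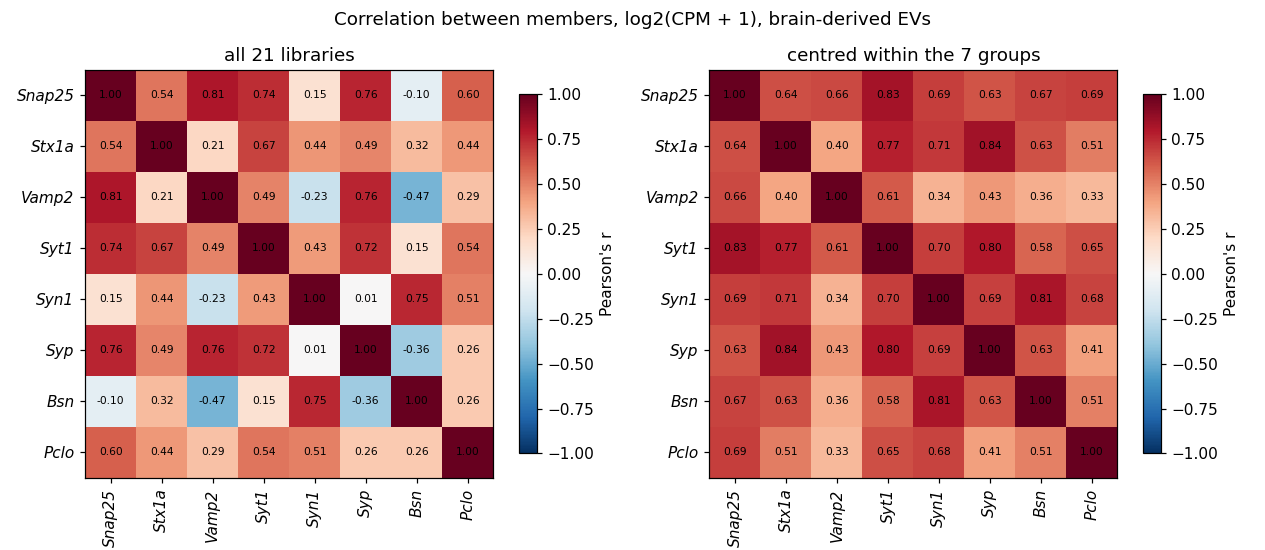
Pearson's r between the 8 genes (rows and columns) over 21 brain-derived EV libraries, on log2(CPM + 1), for all libraries on the left and after centring within the 7 groups on the right; red is positive and blue negative. Vamp2 with Bsn reads -0.47 on the left, and all pairs on the right are between 0.33 and 0.84.

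The genes whose pattern over the 21 brain libraries was most like the mean of the 8 genes, among 14507 others, were Cyfip2 (r = 0.92), Map2 (0.91), Cnksr2 (0.91), Slc6a17 (0.90), Prkar1b (0.90) and Nrgn (0.90). Map2 encodes a protein of dendritic microtubules and Nrgn the postsynaptic calmodulin-binding protein neurogranin. Nrgn averaged 1005 CPM in the healthy group and 415, 525 and 885 CPM in the control group at 4, 10 and 31 days.

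In RefSeq, Syn1 overlaps Timp1, Araf and LOC102555453, so counts made without strand could be shared between them. Timp1, an inhibitor of matrix proteases, was at 0 to 21.9 CPM in brain libraries, the kinase gene Araf at 6.06 to 92.5 CPM and LOC102555453 at 15.1 to 245 CPM, against 233 to 685 CPM for Syn1. The r with Syn1 over the 21 libraries was -0.15, 0.27 and -0.20. Snap25 and Syt1 overlap other RefSeq entries as well, and the remaining 5 genes overlap none.

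In plasma-derived EVs, Vamp2 and Pclo were detected in most libraries and the other 6 genes in few. Plasma libraries held 6357675 to 31028559 annotated counts. The number of 21 plasma libraries with at least 1 count was 21 for Vamp2, 18 for Pclo, 7 for Stx1a, 5 each for Syn1 and Syp, 4 for Bsn, and 2 each for Syt1 and Snap25. Snap25 had 2 counts in each of its 2 libraries, below the 3 counts taken as a floor. A count of 0 says that the message was not detected at this depth. Only 4 of the 8 genes (Vamp2, Pclo, Stx1a and Syn1) passed the filter on low counts, which left 14720 genes in the plasma test.

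Vamp2, which is also expressed outside neurons, was at 57.9, 51.3 and 57.1 CPM in healthy plasma and ranged from 19.6 to 111 CPM over the 21 libraries. No comparison within plasma called it. Its largest log2 fold change was 0.60 ± 0.472 for hNSCs against control rats at 31 days (edgeR adjusted p = 0.779), at 111, 94.2 and 62.4 CPM against 73.3, 41.5 and 61.7 CPM. Pclo ranged from 0 to 77.4 CPM, with 22.2, 28.1 and 5.81 CPM in healthy plasma and 0.440, 0 and 6.74 CPM in the control group at 4 days, so the groups overlapped.

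Stx1a in plasma was at 4.597, 3.84 and 5.56 CPM (162, 44 and 131 counts) in the 3 healthy libraries and at 0 in all 3 control and all 3 hNSCs libraries at 4 days. Its mean in healthy plasma was 113-fold above a floor of 3 counts over the 3 control libraries. Counts are of reads, not of molecules, so this is a description and no bound on the level. At 10 days the control libraries had 94, 0 and 156 counts, and at 31 days 428, 0 and 0 counts, so libraries at 0 and well above it occurred within a group. For control at 4 days against healthy the edgeR test did not call Stx1a (adjusted p = 0.742), with 0.0679% of genes called. DESeq2, which called 6.47% of genes, did (adjusted p = 1.81e-05). In the hNSCs group it had 10 counts in 1 library at 10 days and 0 in all 3 at 31 days.

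Counts of the remaining genes in plasma came in few libraries. Syn1 had 334, 0 and 0 counts in the control group at 4 days and 0, 0 and 391 at 31 days. In the hNSCs group it had 0, 123 and 49 counts at 4 days and 0, 71 and 0 at 10 days, and it was at 0 in all other libraries, the healthy ones included. Syp had 348 counts in control 4 days replicate 3 and at most 9 elsewhere. Bsn had 64 counts in that same library and 86 in hNSCs 10 days replicate 3, which also held the larger of the 2 Syt1 counts (28). Reads carried no molecular identifiers, so these are counts of reads, not of molecules. In the 5 further plasma comparisons none of the 4 tested genes was called by edgeR, where 0%, 0%, 0.00679%, 0% and 0% of all genes were called for control against healthy at 10 and 31 days and for hNSCs against control at 4, 10 and 31 days.

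**Figure D5:**
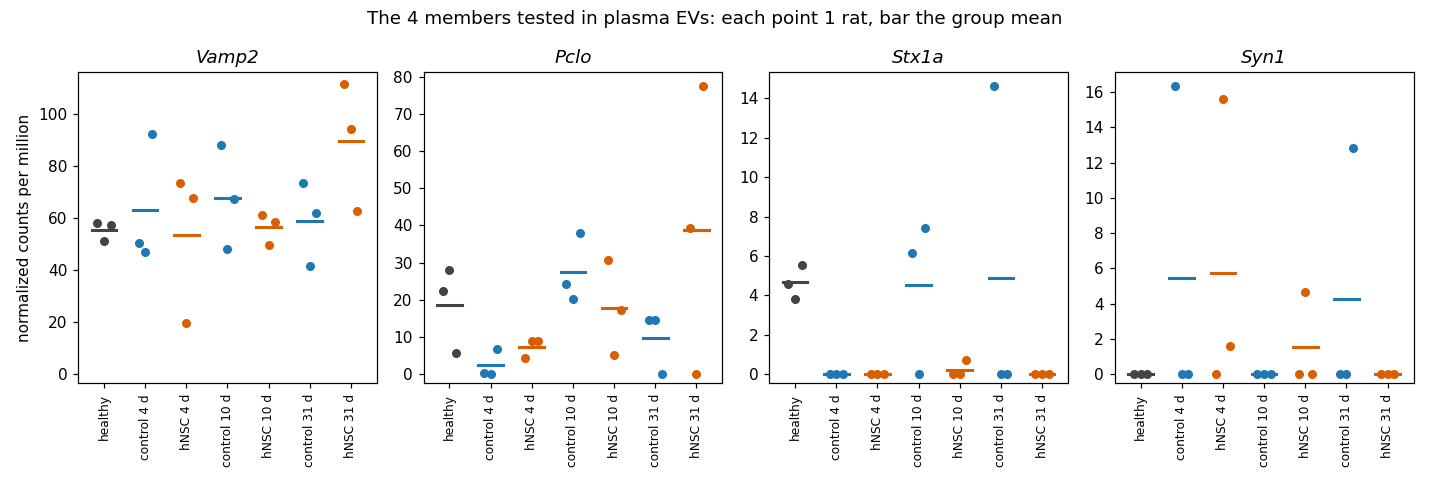
CPM of Vamp2, Pclo, Stx1a and Syn1 in plasma-derived EVs (vertical axis, linear) by group (horizontal axis); points are rats and bars are means of 3. Vamp2 is above 0 in all 21 libraries, and Stx1a is at 3.84 to 5.56 CPM in healthy rats and at 0 in every library at 4 days.

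Brain and plasma of the healthy rats were compared in a fit of their own, with 13771 genes and its own normalization. Vamp2, Stx1a and Pclo, with at least 44 counts in each plasma library, were called lower in plasma, against 34.5% of all genes called in either direction. The other 5 genes had 0 to 16 plasma counts in all and passed the filter on low counts through brain, so a call of lower in plasma was fixed for them and their values are a description. Vamp2 was the least different, at 5.09-fold higher in brain from summed counts (log2 fold change of plasma over brain -2.38 ± 0.432, edgeR adjusted p = 0.00703). Stx1a was 27.8-fold and Pclo 46.4-fold higher in brain, and Syt1, with 16 plasma counts in all, 2096-fold. Set against a floor of 3 plasma counts, the brain level was 7332-fold higher for Syn1, 9616-fold for Snap25, 11721-fold for Syp and 23617-fold for Bsn. Counts are of reads, not of molecules, so these folds are no bounds on the levels.

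Of the 62 further release genes tested in that comparison 47 were called lower in plasma and 0 higher. Over all 13771 genes tested 2318 were called lower and 2429 higher. Genes nearly absent from 1 tissue passed the filter through the other, here and in the lists below, which fixed the direction of their calls. Among 12 widely expressed release SNARE genes, by contrast, 7 were called higher in plasma and 0 lower. They included Snap23, the paralogue of Snap25 outside neurons, at 200 ± 61.6 CPM in plasma against 6.98 ± 7.06 CPM in brain (log2 fold change 4.79 ± 1.16, edgeR adjusted p = 0.0187). Vamp8 was at 39.6 ± 5.29 CPM against 1.00 ± 1.74 CPM (5.15 ± 1.504, 0.0360). All 7 platelet markers and all 6 red cell markers were called higher in plasma, and the summed level of the platelet markers was 971 to 16520 CPM in healthy plasma and 0 to 2.25 CPM in healthy brain. The 12 genes for neuronal somata and dendrites summed to 16.8 to 75.2 CPM in healthy plasma.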

How the data were processed

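Long-RNA libraries of EV RNA (stranded total RNA kit, paired-end reads, no molecular identifiers) had been aligned by the authors with Bowtie2 to Rnor_6.0 and assembled with StringTie. The deposited tables hold whole-number counts per gene, not normalized, and FPKM computed by the authors. The counting program and its use of strand are not given in the sources used here. The labels name plasma for the samples and serum in the extraction text; plasma is used here. Rows for unannotated new genes were left out, and 0 sample columns were left unused.

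Counts of annotated genes were tested with edgeR 4.0.16 (TMM, filterByExpr, glmQLFit, glmQLFTest) in R 4.3.3, with 1 model of 7 groups per tissue and a separate model for healthy plasma against brain. Calls needed a Benjamini-Hochberg adjusted p under 0.05 over all genes tested and a change over 1.5-fold, the thresholds of the study's methods. Alternatives were DESeq2 1.42.0, limma 3.58.1 on log2(FPKM + 1) and log2(FPKM + 0.1) of genes with an FPKM of at least 1 in 3 libraries, other normalizations, no filter, the 2 groups alone, a replicate block, and leaving out each library. Scripts were tested on simulated counts. Python 3.11.15 was used for summaries. Groups follow the labels, each library is 1 rat, and p-values measure the spread between rats. Intervals of depth cover counting error only.

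The labels number replicates 1 to 3 in each group. In brain, the deviations of control and hNSCs libraries with the same number correlated at 31 days (r = 0.25, 0.28 and 0.33). The main model did not use the numbers. A replicate block in the model of all 7 groups was run as an alternative. For hNSCs against control at 31 days no gene of the 8 was called with or without the block. At 4 and 10 days r was -0.07 to 0.18, in plasma -0.12 to 0.05, and between healthy brain and plasma -0.01 to 0.04.

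The 8 genes, the lists and the tests were chosen with earlier results of these data known. Named genes were the 8 genes in every comparison, up to 3 called genes per list and comparison with the largest fold change, the 6 genes most like the mean of the 8, and defining markers. The contrasts of the hNSCs group with the healthy group and between its own days, and the fits without hNSCs 10 days replicate 3, were added after seeing the data.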

Additional observations from a re-analysis of the deposited data

How the results depend on the processing

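The number of the 8 genes called was recomputed under each alternative. For control at 4 days against healthy it was 1 and became 0 with limma at both pseudocounts and with library size over all rows, and 0 to 1 on leaving out single libraries. For control at 10 days against healthy it was 1 and became 0 with limma at both pseudocounts, with library size over all rows, with the 2 groups alone and with the replicate block, and 0 to 2 on leaving out single libraries. Over all genes limma called 0 at both pseudocounts in that comparison, library size over all rows 2, the 2 groups alone 0 and the replicate block 53. For control at 31 days against healthy it was 0 and became 8 with limma at both pseudocounts. There limma called 7391 and 7126 of the 7836 genes it tested, at pseudocounts of 1 and 0.1. For control at 31 against 4 days it was 1, and 3 with DESeq2, 4 and 3 with limma at pseudocounts of 1 and 0.1, 0 with library size over all rows, 2 with the 2 groups alone, and 0 to 1 on leaving out single libraries. Over all genes the counts there were 244 with DESeq2, 3975 and 585 with limma, and 889 with the 2 groups alone. For hNSCs at 4 days against healthy it was 1, and 0 with limma at both pseudocounts and with library size over all rows, and 0 to 1 on leaving out single libraries. For hNSCs at 10 days against healthy it was 0, and 1 with DESeq2 and 0 to 1 on leaving out single libraries. For hNSCs at 31 against 4 days it was 2, and 3 (Snap25 added) with DESeq2, with library size over all rows and with the 2 groups alone, 8 with limma at both pseudocounts and 0 to 2 on leaving out single libraries. Over all genes DESeq2 called 893 there, library size over all rows 456 and the 2 groups alone 1326. With limma 6538 and 6032 genes were called at pseudocounts of 1 and 0.1. In plasma DESeq2 called 2 genes for control at 4 days against healthy, 1 for control at 31 days against healthy, and 1 and 2 for hNSCs against control at 10 and 31 days (Stx1a or Syn1, each with 1 group at 0 counts), where edgeR called 0. Over all genes DESeq2 called 907, 659, 1142 and 1668 in these comparisons, in the same order. The cause of these changes was not tested. The replicate block left the Syp call in place for control at 4 days against healthy (adjusted p = 0.0177), control at 31 against 4 days (0.0438), hNSCs at 4 days against healthy (0.0240) and hNSCs at 31 against 4 days (0.0455), and lost it for control at 10 days against healthy (0.0670); it changed no other call of the 8 genes. Vamp2, Stx1a and Pclo stayed called in healthy plasma against brain under every alternative run, and 0 were called for hNSCs against control in brain under every alternative run. Of the values of genes that were not called in the main test, 146 of those from brain and 23 of those from plasma changed sign under an alternative, 28 and 6 kept their sign and became called, and 920 and 276 kept their sign and stayed uncalled. Of the 146, 28 and 27 came from limma on FPKM with pseudocounts of 0.1 and 1 and 25 from library size over all rows, scalings that also move the median of all genes.

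Counts over all genes moved more. For control at 4, 10 and 31 days against healthy in brain, edgeR called 125, 83 and 1 genes and DESeq2 851, 613 and 176; over single libraries left out the counts were 0 to 315, 0 to 367 and 0 to 7, and limma called 7391 at 31 days. For control at 31 against 4 days the count was 36, 1 to 55 without single libraries and up to 3975 with limma. For hNSCs against control it was 0 at each day, with up to 220 (4 days) and 651 (10 days) in DESeq2 and up to 733 without hNSCs 10 days replicate 1. For hNSCs against healthy it was 369 (26 to 1336) at 4 days and 11 (0 to 1026) at 10 days, and for hNSCs at 31 against 4 days 170 (28 to 6538). The brain interactions had 0 in edgeR and 410, 106 and 224 in DESeq2. In plasma edgeR called 0 to 10 genes and DESeq2 659 to 1668, and healthy plasma against brain had 4747 (2346 to 6513). In plasma 4 of the 8 genes did not pass the filter although its libraries are mostly deeper than those of brain, and 3 libraries a group limit every test.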

Other observations

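The genes most like Syp over the 21 brain libraries were Spryd3 (r = 0.95), Nefm (0.94), Nrgn (0.93), Pja2 (0.93), Stmn4 (0.93) and Trim44 (0.92). Spryd3 averaged 217 CPM in the healthy group, 73.1, 86.4 and 249 CPM in the control group at 4, 10 and 31 days, and 93.9, 99.2 and 252 CPM in the hNSCs group at those days. These genes were ranked by likeness over the same libraries, so their course is not independent of that of Syp.

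The 6 genes most like Vamp2 were of another kind. Ddb2 (r = 0.94), Rrh (0.93), Gnpda2 (0.91), Ppil3 (0.90), Slc25a40 (0.90) and Cyp2t1 (0.90) averaged 0 CPM in all 4 groups at 4 and 10 days, and between 2.33 and 6.12 CPM at 31 days. The 31-day libraries are the deepest of the brain series, with 6379318 to 15587216 annotated counts and at least 15013 genes detected, against 569136 to 6105035 and at most 14099 in the others. Its part in the Vamp2 values was not tested.

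Stx1a most resembled Ptprn2 (r = 0.85), Sh3glb2 (0.83) and Rbfox1 (0.80), and Bsn most resembled Trnp1 (0.83), Kcnc1 (0.83) and Bhlhe22 (0.83). Kcnc1, which encodes a potassium channel of fast-spiking neurons, averaged 159 CPM in the healthy group and 221, 203 and 125 CPM in the control group at 4, 10 and 31 days.

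Other marker lists in brain gave these counts for control at 4 days against healthy. Of 8 astrocyte genes 2 were called higher with a list median of 0.43, of 8 oligodendrocyte and 8 vascular genes 0 were called with medians of 0.22 and 1.38, and of 5 red cell, 2 platelet and 4 endocrine genes tested 0 were called with medians of -1.79, 4.04 and -0.75. Mbp, the myelin basic protein gene, was called lower at 31 than at 4 days in the control group, at 943 ± 93.9 against 3541 ± 948 CPM (SD, n = 3; edgeR adjusted p = 0.0435). Of 11 widely expressed release SNARE genes tested, 2 were below 0 and 0 were called at 4 days, with a median of 0.56.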
